A study of Homo sapiens with 2 samples.

Results

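The 14-3-3 proteins are small adaptor proteins that bind other proteins at phosphorylated serine or threonine. The peaks listed under 6 of their genes, YWHAZ, YWHAE, YWHAB, YWHAQ, YWHAG and YWHAH, were taken from MSI2 CLIP-seq of NB4 cells. Peaks were assigned to members by Ensembl gene ID, with no cut on a measured value. The family itself was chosen with earlier results of these data known. They held 43 of the 25920 peaks of replicate 1 and 42 of the 25243 peaks of replicate 2, and were 6 of the 8801 gene IDs found in either list. MSI2 (Musashi-2) is an RNA-binding protein, and NB4 is a human cell line from acute promyelocytic leukaemia. In CLIP-seq, ultraviolet light crosslinks a protein to the RNA it touches, an antibody recovers the protein, and the bound RNA fragments are sequenced. Both libraries formed 1 group: cells without a stated treatment or genetic change, with equal cell numbers per library, crosslinked at 400 mJ per square centimetre and recovered with an Abcam anti-MSI2 antibody. The labels number the replicates without saying that they came from separate cultures, and no control library was analysed here, so MSI2 binding and repeatable background cannot be told apart.

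14-3-3 proteins work as dimers that clasp phosphorylated clients such as RAF kinases, CDC25 phosphatases, the cell death protein BAD and FOXO transcription factors, and so hold them in an altered shape, activity or place in the cell. The isoforms are named by Greek letters: zeta is made from YWHAZ, epsilon from YWHAE, beta from YWHAB, theta from YWHAQ, gamma from YWHAG and eta from YWHAH. Musashi proteins bind short RNA motifs that contain UAG, often in 3' untranslated regions, and are known to alter the translation or stability of the mRNAs they bind.

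Each deposited peak carries a p-value from the authors' list and, as the last part of its name, a whole number of 3 or more that no header explains. This number is called the tally, and it is treated as a quantity that behaves like a number of reads. Tallies summed to 155598 over all peaks of replicate 1 and 133644 over those of replicate 2. These totals describe what was called as peaks, and the sequencing depth is unknown. Positions are those of hg19, counted from 1.

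Of the 6 genes, 5 carried peaks in both lists, against 63.1% of all gene IDs found in either list. YWHAG, YWHAB and YWHAZ carried most of the signal: together they held 375 of the family's summed tally of 453 in replicate 1 (82.8%) and 282 of 347 in replicate 2 (81.3%). YWHAQ and YWHAE carried less, and YWHAH was listed with 1 weak peak in replicate 1 alone. By number of peaks, 3 of the 6 genes had 8 or more in replicate 1, where 11.2% of gene IDs did, and 4 had 8 or more in replicate 2, where 10.8% did. The cut of 8 was not fixed beforehand, and YWHAB in replicate 1 and YWHAQ in replicate 2 had exactly 8 peaks.

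YWHAG, which encodes the gamma isoform, had a summed tally of 142 in replicate 1 and 98 in replicate 2. YWHAB, the beta isoform, had 127 and 93. YWHAZ, the zeta isoform, had 106 and 91. Within each list their order was the same. Taken over both lists, the ranges of these 3 genes overlapped, so their order was not resolved by the spread between replicates. YWHAQ followed at 43 and 44, YWHAE at 31 and 21, and YWHAH at 4 and no peak. Each of these steps down was larger than the gap between replicates, since the ranges of neighbours did not overlap. Among the strongest 10% of each list by p alone, the mean summed tally was 16 for YWHAE and 8.5 for YWHAQ, the reverse of their order here. With 2 libraries and no condition to compare, no test was made of this order.

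**Figure D1:**
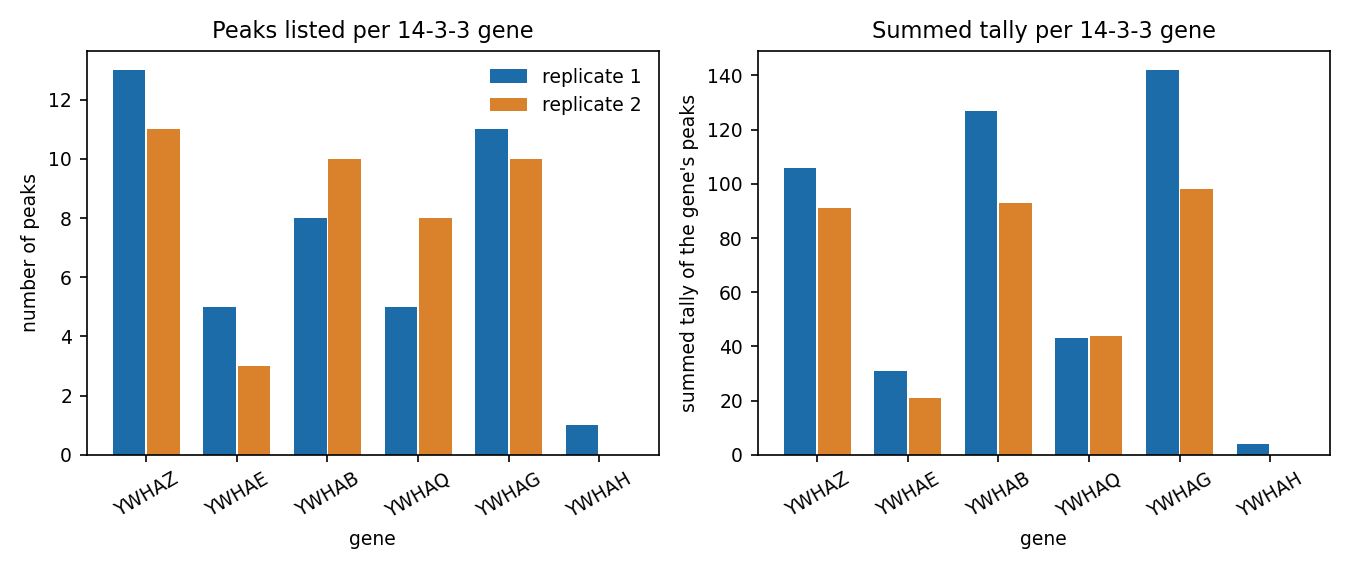
Peaks listed (left, number of peaks) and summed tally (right) for each 14-3-3 gene, with 1 bar for each replicate and no error bars because each bar is 1 library. YWHAG, YWHAB and YWHAZ reach summed tallies of 91 to 142, and YWHAQ and YWHAE lie at 21 to 44.

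A longer transcript offers more room for peaks, and the summed tally was not corrected for transcript length. Dividing it by the nucleotides that the peaks themselves covered gives the density of tally inside peaks, which does not correct for transcript length either. This density was 31.2 per 100 nt in replicate 1 and 24.2 in replicate 2 for YWHAB, and 29.2 and 22.8 for YWHAG. On this scale YWHAZ, at 17.4 and 17.5, lay beside YWHAQ, at 16.9 and 17.3, while YWHAE had 14.2 and 10.2. YWHAZ had the most covered sequence of the family, at 610 and 519 nt, against 407 and 384 nt in YWHAB and 255 and 254 nt in YWHAQ.

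Among all gene IDs, the 3 leading genes stood near the top of both lists. Only 75 of the 7252 gene IDs of replicate 1 (1.03%) had a larger summed tally than YWHAG, 95 had a larger one than YWHAB and 160 (2.21%) than YWHAZ. In replicate 2, of 7101 gene IDs, 146, 164 and 174 (2.45%) were above them. YWHAQ had 954 and 672 gene IDs above it, and YWHAE 1446 and 1788. YWHAH lay low, with 77.4% of the gene IDs of replicate 1 above it. The median gene ID had a summed tally of 11 in replicate 1 and 10 in replicate 2. The amount of each RNA in the cells was not analysed here, so more RNA and more MSI2 per RNA cannot be told apart.

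**Figure D2:**
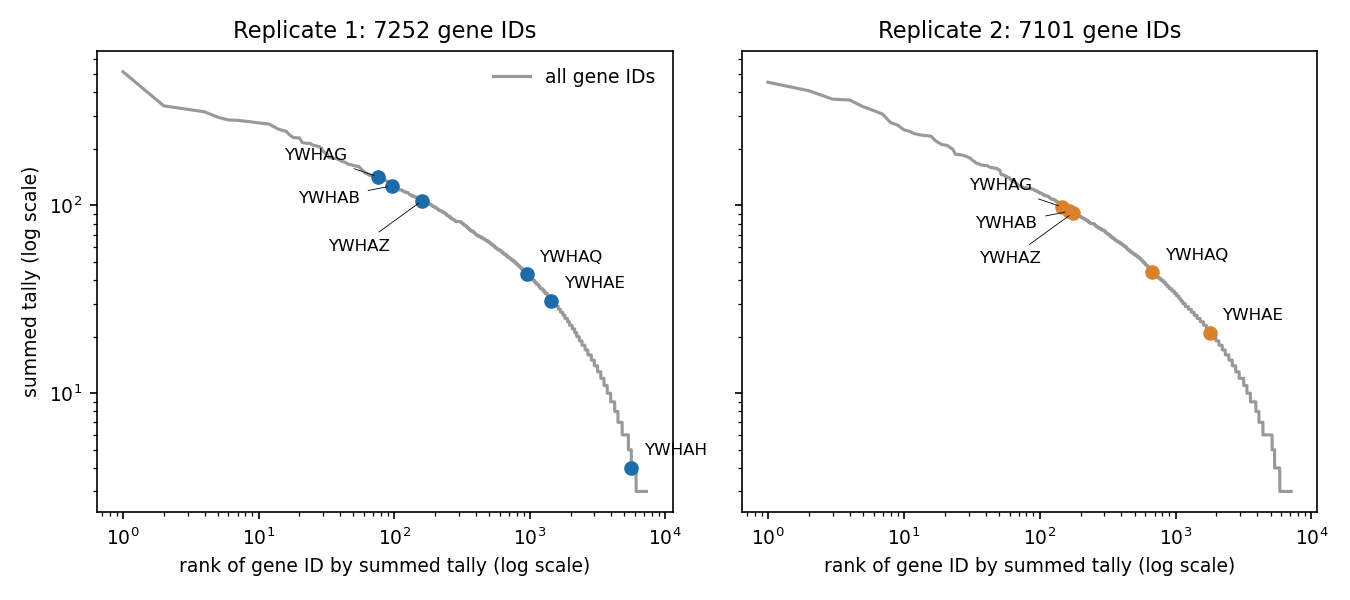
Summed tally (log scale) of every gene ID against its rank (log scale) in replicate 1 (left) and replicate 2 (right), with the 14-3-3 genes as points. YWHAG, YWHAB and YWHAZ sit at ranks where 75 to 174 gene IDs are higher, and YWHAH has no point in replicate 2.

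Pooled over the 6 genes, single peaks of the family were stronger than the usual peak of these lists. Their median tally was 9 in replicate 1 (interquartile range 5 to 13.5) and 7 in replicate 2 (5 to 10.8), while the median over all peaks was 4 in each list. By gene, the replicate 1 median was 13 in YWHAB, 12 in YWHAG, 6 in YWHAZ and YWHAQ, and 4 in YWHAE and YWHAH. In replicate 2 it was 8 in YWHAZ, 7.5 in YWHAB and YWHAG, 6 in YWHAE and 5.5 in YWHAQ. A tally of 10 or more was reached by 19 of the 43 member peaks in replicate 1 (44.2%, against 13.2% of all peaks) and by 12 of the 42 in replicate 2 (28.6%, against 9.53%). The lowest tally, 3, was carried by 2 member peaks in replicate 1 and 6 in replicate 2, against 35.7% and 45.3% of all peaks. Ranked by the deposited p, 10 member peaks of replicate 1 (23.3%) and 12 of replicate 2 (28.6%) were among the strongest 10% of their lists. Their width was ordinary, with a median of 48.0 nt in replicate 1 and 37.5 nt in replicate 2, beside 42 and 39 nt over all peaks.

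Peaks were called shared where at least 1 nt of them was overlapped by a same-strand peak of the other replicate. Among member peaks, 28 of 43 in replicate 1 were shared, or 65.1% (95% Wilson interval 50.2% to 77.6%), against 35.7% of all peaks. In replicate 2 it was 27 of 42, or 64.3% (49.2% to 77.0%), against 37.3%. Over all gene IDs, peaks of high tally recurred more often than peaks of low tally, and the share over all peaks weighted to the members' own tallies was 62.3% in replicate 1 and 61.3% in replicate 2. Both lie inside the members' intervals, so by this weighting the recurrence of 14-3-3 peaks was not distinguishable from that of other peaks. The weighting was chosen after seeing the data, and peaks with tallies under 10 are given separately below. With a reciprocal overlap of 50% required, 37.2% of the member peaks of replicate 1 were shared, beside 26.8% of all peaks. The intervals cover counting error only, and peaks of 1 gene are not independent.

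By gene, YWHAZ had 9 shared peaks of 13 in replicate 1 and 9 of 11 in replicate 2, YWHAB 7 of 8 and 7 of 10, and YWHAG 6 of 11 and 6 of 10. YWHAQ had 3 of 5 and 3 of 8, and YWHAE 3 of 5 and 2 of 3. At least 1 shared peak was thus present in 5 of the 6 genes, against 45.5% of all gene IDs found in either list. YWHAZ, YWHAB and YWHAG had 5 or more shared peaks of replicate 1, a number reached by 5.02% of all gene IDs. A tally of 10 or more was reached in both lists by YWHAZ, YWHAB, YWHAG and YWHAE, 4 of the 6 genes, against 12.4% of all gene IDs. Counted by nucleotide, the sequence covered in both lists was 45.1% of that covered in either for YWHAB, 43.1% for YWHAZ, 40.9% for YWHAG and 40.4% for YWHAE. YWHAQ stood lower at 20.9%.

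YWHAB held the strongest peak of the family. This plus-strand gene on chromosome 20 (ENSG00000166913.8) had 8 peaks in replicate 1 and 10 in replicate 2, all between 43533620 and 43537043, a stretch of 3.42 kb. The strongest, at 43536853 to 43536946 in replicate 1, had a tally of 34 and a deposited p of 4.18e-17. Its partner in replicate 2, at 43536852 to 43536908, had a tally of 21 and a p of 2.00e-12, and the inner intervals of the pair had the same centre. Just upstream, at 43536709 to 43536767, lay a peak with a tally of 23, matched by one of 12 in replicate 2. Another neighbour at 43537006 to 43537040, with tallies of 10 and 6, closed this group at the 3' end.

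A further group of YWHAB peaks lay about the middle of the stretch. The peak starting at 43535023 began at the same nucleotide in both lists, reached 43535056 in replicate 1 and 43535099 in replicate 2, and had tallies of 13 and 17. Those at 43535361 to 43535406 and 43535483 to 43535543 had tallies of 11 and 13 in replicate 1 and partners of 4 and 8 in replicate 2. The peak at 43534710 to 43534738 had tallies of 9 and 7. Of the 8 peaks of replicate 1, the only one without a partner was at 43536349 to 43536397, with a tally of 14. The nearest peak of replicate 2, with a tally of 8, ended 199 nt upstream of it. Tallies were higher in replicate 1 in 6 of the 7 YWHAB pairs.

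YWHAG (ENSG00000170027.5), a minus-strand gene on chromosome 7, had 11 peaks in replicate 1, all between 75956129 and 75959407, and 10 in replicate 2. Its 3'-most site was the strongest of replicate 1: a peak at 75956129 to 75956215 with a tally of 25, matched at 75956135 to 75956206 by one of 18. The highest tally of replicate 2 was 21, at 75958369 to 75958454, where replicate 1 had a peak of 17 at 75958390 to 75958458. The next nucleotide of replicate 1 opened another peak, 75958459 to 75958522, with a tally of 19. It had no partner, though the peak of replicate 2 ended only 4 nt short of it. Shared peaks also lay at 75958632 to 75958712, with tallies of 18 and 15, and at 75957194 to 75957241, with 12 and 10. Weaker shared sites had tallies of 7 and 8 and of 6 and 5. A peak of replicate 1 with a tally of 16, at 75958216 to 75958275, was 93 nt from the nearest peak of replicate 2. The signal of YWHAG was thus spread over several sites, with 17.6% of the summed tally in the strongest peak of replicate 1 and 21.4% in that of replicate 2.

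YWHAZ (ENSG00000164924.13), a minus-strand gene on chromosome 8, had the most peaks of the family, 13 in replicate 1 and 11 in replicate 2. Its strongest sites were a pair of nearby peaks. The one at 101931226 to 101931288 had tallies of 21 and 15, and the one at 101931631 to 101931698 had 21 and 13. In both, the inner intervals of the replicates were centred 1 nt apart. Between them, a peak of 53 nt in replicate 2 with a tally of 12 enclosed one of 16 nt in replicate 1 with a tally of 7. Next to the second, the peak at 101931710 to 101931752 had tallies of 10 and 8. A further group lay at 101932380 to 101932683, where tallies were 5, 5 and 9 in replicate 1 and 3, 11 and 9 in replicate 2.

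Far upstream of these sites YWHAZ had a weak shared peak at 101960920 to 101960974, with tallies of 6 and 3, and its inner intervals were centred 1 nt apart. A peak with a tally of 8 at 101964183 to 101964264, the 5'-most of the gene, was listed in replicate 2 only. Peaks of 4 at 101947959 and 101950782 were listed in replicate 1 only.

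YWHAQ (ENSG00000134308.9), on the minus strand of chromosome 2, had 5 peaks in replicate 1 and 8 in replicate 2, with nearly equal summed tallies of 43 and 44. Its strongest site was one wide peak in replicate 1, 117 nt at 9725127 to 9725243 with a tally of 17. Replicate 2 had 2 peaks in and beside it, at 9725207 to 9725255 with a tally of 9 and at 9725272 to 9725303 with 6. The inner intervals of the overlapping pair lay 44 nt apart. Shared peaks at 9724243 to 9724295 and 9724962 to 9724987 had tallies of 10 and 7 and of 5 and 7. Further upstream the lists had a peak each, of tally 5, that missed each other by 35 nt, at 9727554 to 9727574 and 9727610 to 9727636.

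YWHAE (ENSG00000108953.12) encodes the epsilon isoform, whose protein favours dimers with other 14-3-3 isoforms. It had 5 peaks in replicate 1 and 3 in replicate 2. On the minus strand of chromosome 17, replicate 2 listed 1 peak of 128 nt at 1248668 to 1248795 with a tally of 12. Replicate 1 split the same stretch into peaks at 1248668 to 1248682 and 1248739 to 1248794, with tallies of 3 and 11. The other shared site, at 1257505 to 1257555, had the same 3' edge in both lists and had tallies of 9 and 6. The other 3 YWHAE peaks were unshared, with tallies of 3 or 4. YWHAH (ENSG00000128245.10) was listed with a single peak of 31 nt on the plus strand of chromosome 22, at 32353071 to 32353101, with a tally of 4 in replicate 1. Such a tally is 1 above the lowest in the lists, so the lack of a YWHAH peak in replicate 2 does not show that the RNA was unbound there.

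**Figure D3:**
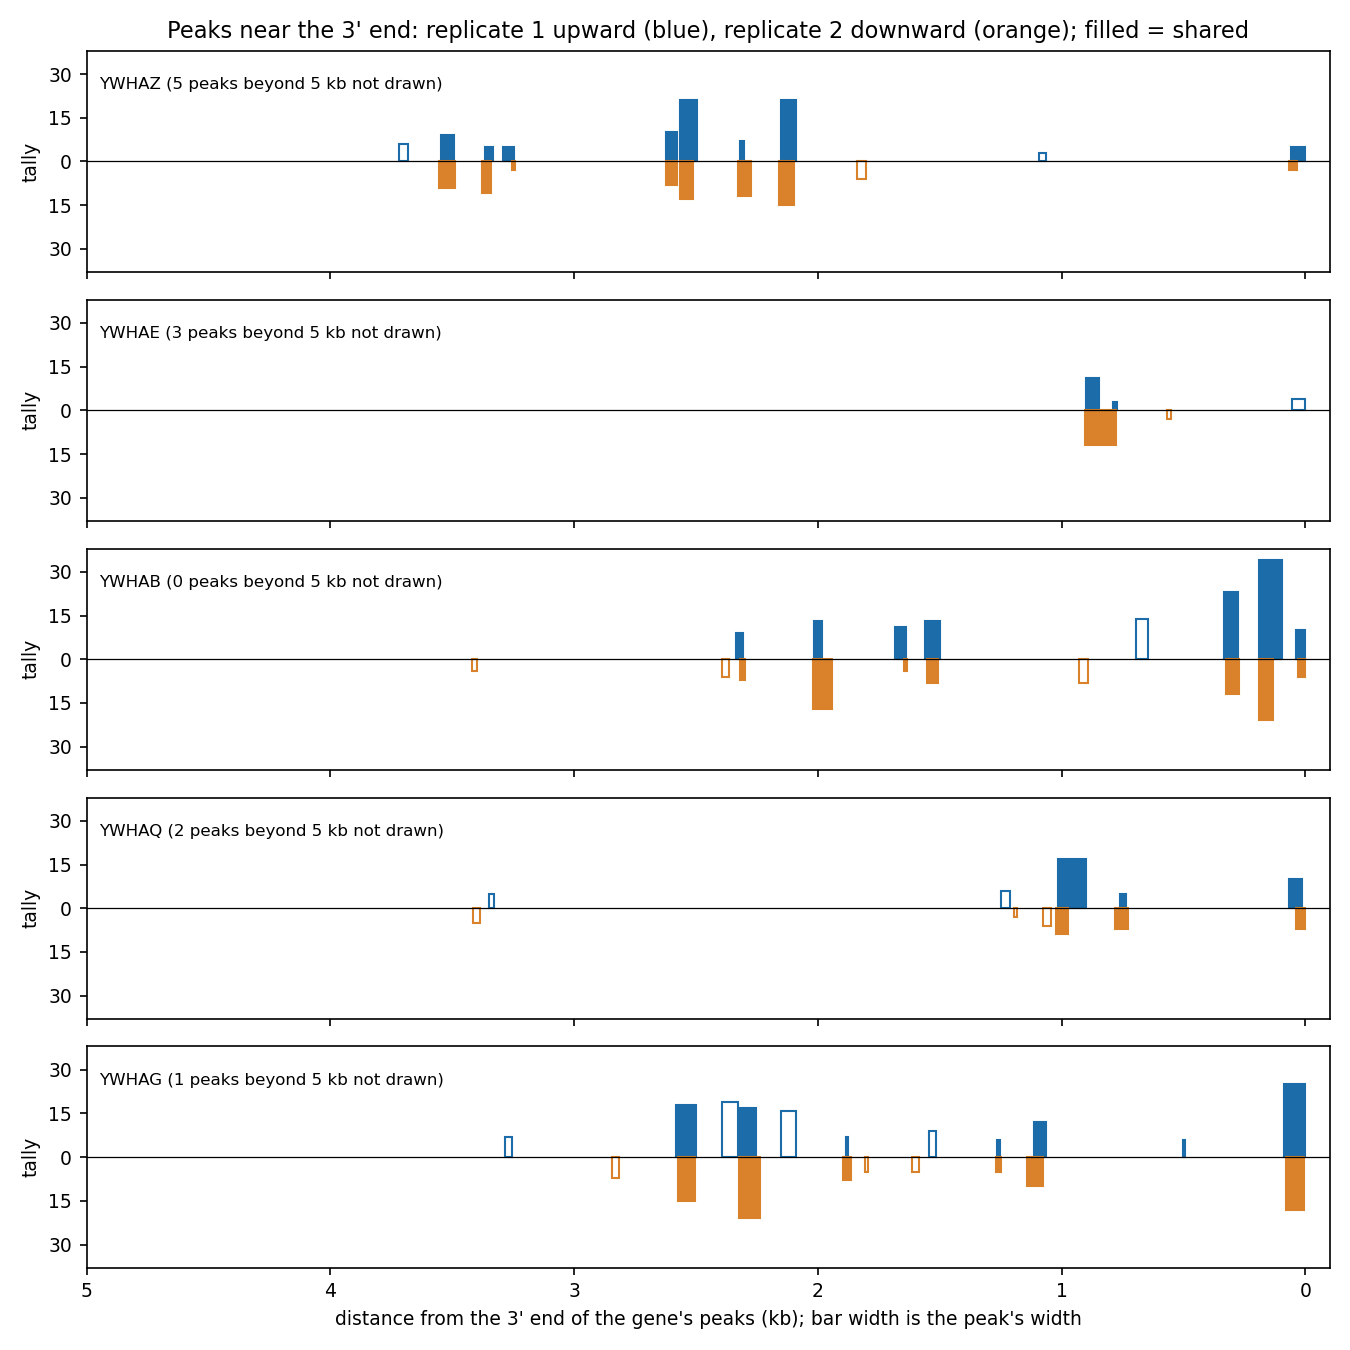
Tally of each peak against its distance in kb from the 3' end of the gene's peaks, for the 5 genes listed in both replicates, with replicate 1 upward and replicate 2 downward, bars as wide as the peaks and filled where shared. Peaks over 5 kb from that end are not drawn. The YWHAB peaks with tallies of 34 and 21 overlap, centred 0.143 and 0.163 kb from that end. Some strong bars of replicate 1 are unfilled: the YWHAB peak of 14 and the YWHAG peaks of 16 and 19.

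Along the genes, the peaks gathered in a single run at the 3' end. A run was taken to start at the 3'-most peak of either list and to end at the first gap over 2 kb. It held 37 of the 43 member peaks in replicate 1 (86.0%, against 63.1% of all peaks) and 35 of 42 in replicate 2 (83.3%, against 61% of all peaks). Genes with 1 peak lie in their run by definition. Among gene IDs with 5 or more peaks in a list, members had 36 of 42 (85.7%) and 33 of 39 (84.6%) in the run, against 56% and 54.4% over all such gene IDs. These are descriptions without a test, and peaks of 1 gene share their transcript.

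The runs were short beside the spans of the peaks taken over both lists in YWHAZ, YWHAG, YWHAQ and YWHAE. In YWHAZ the run covered 3.72 kb of a span of 35.1 kb and held 86.8% of the tally in replicate 1 and 87.9% in replicate 2. In YWHAG it covered 3.28 kb of 31.97 kb, with 100% and 95.9% of the tally. In YWHAQ it covered 1.25 kb of 44.8 kb, with 88.4% and 72.7%. YWHAE was the most dispersed, with a run of 0.903 kb in a span of 54.1 kb and 58.1% and 71.4% of the tally. All peaks of YWHAB lay in its run. Apart from YWHAZ, these long spans rested on 1 unshared peak each, with a tally of 3 or 4 in 1 list: YWHAG at 75988088 and YWHAQ at 9769053 in replicate 2, and YWHAE at 1301910 in replicate 1. In replicate 1 alone the peaks spanned 3.28 kb in YWHAG and 3.33 kb in YWHAQ, and in replicate 2 alone 9.12 kb in YWHAE. Within the runs of these 5 genes the peaks of a list covered 10.6% to 18.8% of the sequence.

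Outside the runs, 2 of 6 peaks were shared in replicate 1 and 2 of 7 in replicate 2, with tallies of 4 to 9 and 3 to 8. Inside the runs, 26 of 37 and 25 of 35 were shared. With so few peaks outside, no difference is claimed. In the 4 members with a peak span of at least 10 kb, the final 10% of the span toward the 3' end held 16 of the 19 shared peaks of replicate 1 (84.2%), once peaks that set the ends of the span were left out, beside 51.8% of such peaks over all genes of that span. With spans set by replicate 1 alone, 2 members remained, with 6 of 10 shared peaks there, and with spans set by replicate 2 alone, 3 members remained, with 14 of 15. The spans are those of peaks and not of annotated genes, and exon positions of this build were not used here, so the data do not say which of these sites are in a 3' untranslated region.

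Shared peaks of the family were about as close in place as shared peaks over all gene IDs. Pairs were chosen by overlap, so closeness in place was in part set by that choice. Over the 28 pairs, the inner intervals were centred a median of 7.5 nt apart, against 7 nt over all 9246 pairs, and 17 pairs lay within 10 nt (60.7%, against 66.9%). The median overlap was 39 nt, beside 38 nt. In 5 pairs the peaks had the same lower genomic coordinate, which is the 5' edge in 1 pair on the plus strand and the 3' edge in 4 on the minus strand, and in 13 both edges agreed within 10 nt. The tally was higher in replicate 1 in 19 pairs and in replicate 2 in 8. The median log2 ratio of replicate 2 over replicate 1 was -0.42 for these pairs and -0.22 over all pairs. Across the 28 pairs the log2 tallies had a Pearson r of 0.62 and a Spearman rho of 0.66, a description over sites that share libraries and genes. The wide YWHAE peak of replicate 2, with a tally of 12, entered 2 of these pairs. Its partners in replicate 1 had tallies of 3 and 11, and the pair with 3 was centred 108 nt apart.

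**Figure D4:**
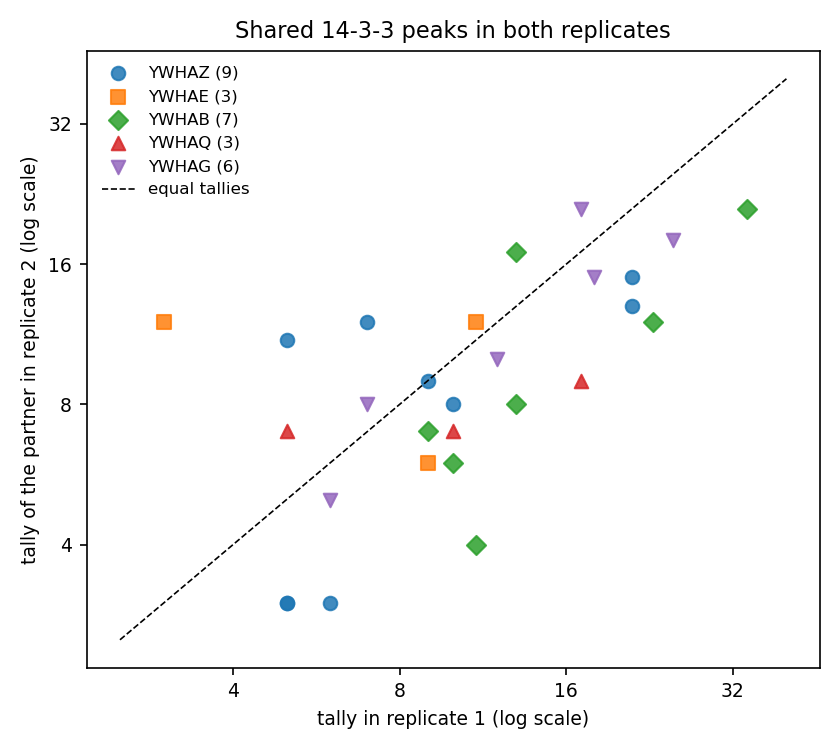
Tally in replicate 1 against the tally of the overlapping peak in replicate 2, both on log scales, for the 28 shared peaks, marked by gene, with a dashed line at equal tallies. Below the line lie the 19 pairs that were higher in replicate 1, and 2 YWHAZ pairs with tallies of 5 and 3 fall on 1 point.

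Over the whole gene, the division of the summed tally between the lists was compared. Over all peaks the summed tally was also larger in replicate 1, at 155598 against 133644, so an even split is not the baseline for these shares. Replicate 1 held 59.2% of the YWHAG tally (exact 95% interval 52.7% to 65.4%), 57.7% of that of YWHAB (50.9% to 64.3%) and 53.8% of that of YWHAZ (46.6% to 60.9%). The share for YWHAQ was 49.4% (38.5% to 60.4%) and for YWHAE 59.6% (45.1% to 73.0%). These intervals all overlap and cover counting error only, so the genes were not separated by this measure. As shares of each list's total, the log2 ratio of replicate 2 over replicate 1 was -0.32 for YWHAG, -0.23 for YWHAB, 0.00 for YWHAZ, 0.25 for YWHAQ and -0.34 for YWHAE.

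Of the 15 unshared member peaks in replicate 1, 5 lay within 100 nt of a peak of replicate 2 in the same gene, 6 lay up to 1 kb away and 3 lay further, and YWHAH had none to compare. In replicate 2, 6 of 15 lay within 100 nt, 4 up to 1 kb and 5 further. With a tally of 10 or more, 16 of 19 member peaks were shared in replicate 1, or 84.2% (62.4% to 94.5%), against 87.1% of all such peaks. In replicate 2 all 12 were shared (75.8% to 100%), against 89.4%. With a tally under 10, 12 of 24 member peaks were shared in replicate 1, or 50% (31.4% to 68.6%), against 27.9%. In replicate 2 it was 15 of 30, or 50% (33.2% to 66.8%), against 31.8%. Tallies were not matched within this weaker class, and peaks of 1 gene are not independent. The strong peaks without a partner were the YWHAB peak of 14 and the YWHAG peaks of 16 and 19 described above.

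Of the gene IDs in the lists, those most like YWHAG, the member with the largest summed tally, were found by distance over log2(1 + peaks) and log2(1 + summed tally) in both libraries. The nearest was ENSG00000115484.10 on chromosome 2, at a distance of 0.28, with 12 and 10 peaks and summed tallies of 119 and 94. ENSG00000160131.9 on chromosome X, at 0.33, had summed tallies of 147 and 84, and ENSG00000133112.12 on chromosome 13, at 0.34, had 165 and 108. Within the family, YWHAB lay at 0.45 from YWHAG and YWHAZ at 0.50, while YWHAQ lay at 2.3 and YWHAE at 3.54. The likeness is one of level over 2 libraries only.

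No other gene ID had a peak, on either strand, between the first and last peak of any member in either list, and no member peak was also listed under another ID. RefSeq for GRCh38.p14 names 29 pseudogenes after these genes, 10 after YWHAZ, 10 after YWHAQ, 7 after YWHAE and 2 after YWHAB, and none after YWHAG or YWHAH. The sources used here do not give how reads that match a gene and its pseudogene were placed, and their part in the values of these 4 genes was not tested.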

How the data were processed

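Peak lists of 2 MSI2 CLIP-seq libraries were analysed. The submitters' processing notes name the build hg19 and the tools STAR 2.3.0e, Bowtie 1.0.0 and cutadapt. Per the names of the deposited lists, poly(A) and adapter sequence were trimmed and duplicates removed. The sources used here do not name the peak caller. The p-value that the authors deposited for a peak served to rank, describe or select peaks inside 1 list and for nothing else. The peak name, a text field that the authors deposited, holds the gene ID and the tally. Overlaps, shares with Wilson intervals, and sums per gene ID were computed with Python 3.11.15, NumPy 2.4.6, pandas 2.3.3 and SciPy 1.17.1, and plotted with matplotlib 3.10.9. Starts were shifted to count from 1. Tallies of 20 or more were pooled for the tally-weighted share. The overlap rule was tested on simulated data.

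The members and lists were chosen with earlier results of these data known. The named items were all members, each member's strongest peak and all its peaks with a tally of 10 or more, and the 3 gene IDs most like the leading member. Lists of 14-3-3 partners and of cell type markers, and the gene SFN, were not analysed here, because the 59792 rows of the RefSeq table paired no Ensembl ID with a name; the NB4 label was therefore not checked against markers. Symbols of the members came with their IDs in the rule.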

Additional observations from a re-analysis of the deposited data

How the results depend on the processing

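Of 57 recomputed values, 40 stayed within the margin set for them and 17 moved. Margins differed in kind: a fold limit for counts and tallies, and a Wilson interval for shares. For the log2 ratio only the sign counted, and for positions the standard deviation between the replicates. That standard deviation is smaller than the gap between the replicates, so the replicate 2 position moved by construction. The counts of 40 and 17 therefore do not measure robustness. The 3'-most run with gaps of 1 or 5 kb, spans set by 1 list, and the tally-weighted share were chosen after seeing the data. Keeping the strongest 10% of each list by p left a mean of 11 member peaks per list in place of 42.5 and a mean summed tally of 184 in place of 400, by construction. The order of the genes then changed, to 60 for YWHAB, 50.5 for YWHAZ, 49 for YWHAG, 16 for YWHAE and 8.5 for YWHAQ. The share of replicate 1 peaks shared was 37.2% with a reciprocal overlap of 50% and 81.4% with peaks extended by 100 nt, where 26.8% and 48.5% of all replicate 1 peaks were shared. The median position of shared peaks was 0.94 in replicate 2 and 0.93 in the stronger 50%, against 0.96. With spans set by 1 list alone it was 0.94 to 0.95; as a distance it was 1.38 kb from the 3' end of the span. Leaving out a replicate gave 42 to 43 peaks and a summed tally of 347 to 453. For YWHAH every alternative moved the mean tally of 2, since it rests on 1 peak of replicate 1. Alternatives for 14-3-3 partner genes were not run. No paired analysis was possible because both libraries belong to 1 group. The sequencing depth is unknown, and most member peaks rest on tallies under 10.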

Other observations

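The deposited p did not follow the tally alone across the 14-3-3 genes. The YWHAG peak with a tally of 25 in replicate 1 had a p of 4.86e-09, while the YWHAZ peaks with a tally of 21 had 2.24e-15 and 5.05e-15. Among replicate 1 peaks with tallies of 8 to 12, the p ran from 3.87e-07 to 1.06e-06 in YWHAE and from 9.89e-05 to 0.000627 in YWHAG. In replicate 2, the YWHAE peak in this range had 1.18e-06, and the YWHAG peaks had 0.000906 and 0.00119. Among the member peaks of each list, the strongest YWHAB peak led by p and had the highest tally, jointly in replicate 2. Below it, the order of member peaks differed between p and tally. The strongest 10% of replicate 1 by p keeps the YWHAE peaks of 9 and 11 and leaves out the YWHAG peaks of 16, 17 and 18.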
